A study of Homo sapiens with 18 samples.

Results

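Genistein and baicalein are plant flavonoids that share 1 molecular formula and differ in structure. The comparison reported here set the 3 libraries of LNCaP cells given genistein at 20 µM against the 3 libraries of LNCaP cells given baicalein at the same concentration, 6 of the 18 libraries of the series. It covered all genes, was computed from the deposited counts, and included the genes that the isomers moved in opposite directions. Baicalein belongs to the flavones and genistein to the isoflavones: their phenyl ring sits on different carbons of a shared chromone core, and their hydroxyl groups are placed differently. Both were applied for 24 h in RPMI-1640 medium with fetal bovine serum. LNCaP is a human prostate cancer line, grown from a lymph node metastasis, that responds to androgen. All 6 libraries are of this line, which the labels call wild type, and the design therefore speaks for 1 cell line. Untreated LNCaP (3 libraries, which the treatment protocol describes as given the vehicle DMSO and the sample labels as untreated) entered as the reference for the direction of each drug's change. LNCaP given 10 µM of either drug (3 libraries each) supplied a second matched dose. The other 3 libraries, of untreated PC-3 cells, were not used. The study, per its title, examined both flavonoids as sensitizers to a radioactive ligand of PSMA, the prostate-specific membrane antigen encoded by FOLH1. Whether the 3 libraries of a group came from separate cultures is not stated in the labels, and p-values therefore reflect the spread from library to library alone, which may be technical.

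As background, androgen drives luminal genes of the prostate such as the kallikrein KLK3, which encodes prostate-specific antigen. Fatty acid and cholesterol synthesis, which prostate cancer cells run at a high rate, are transcribed under SREBP factors that respond to membrane sterol. Several stress circuits answer damage: p53 raises cell cycle inhibitors and apoptosis genes, heat shock factor raises chaperones when proteins misfold, and ATF4 with its partner DDIT3 answers blocked translation and amino acid shortage. Immediate early genes such as EGR1 and FOS are transcribed within minutes of growth factor or stress signalling through MAP kinases.

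Total counts per LNCaP library lay between 10551965 and 18445711. Levels are given in CPM, counts scaled to library size by the TMM method, and a difference is the log2 CPM with genistein minus the log2 CPM with baicalein, so that a positive value means more with genistein. Luminal markers summed to between 3573 and 3851 CPM with genistein, 1824 and 1864 CPM with baicalein, and 4891 and 5172 CPM without drug over 12 markers. Of 12 leukocyte, endothelial and fibroblast markers, 4 passed the filter on low counts and 0 differed between the isomers, while 2 of the 12 had no count in the 9 libraries; the list summed to between 18.2 and 22.8 CPM with baicalein and 19.03 and 20.9 CPM with genistein. Mitochondrially encoded genes took 6.26%, 5.58% and 5.03% of counts in the genistein libraries and 10.5%, 14.5% and 12.4% in the baicalein libraries, against 4.65%, 5.36% and 5.25% without drug. The shares of the isomers did not overlap and differed by 6.84 percentage points, for which the exact two-sided permutation test gave p = 0.1, the smallest it allows for 3 against 3. With the 37 listed mitochondrially encoded genes removed altogether, the filter on low counts and the fit were redone. Of the 16807 genes that then passed the filter 8292 differed, against 8278 of 16985 with the mitochondrially encoded genes kept. In bulk RNA, fewer cells of a kind and less RNA per cell cannot be told apart.

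The promoters of 5 genes on which the results below turn are shown first, as the 250 bases before the RefSeq transcription start (GRCh38.p14), 5′ to 3′ on the gene's own strand. HSPA6 and HSPA1B encode inducible HSP70 chaperones that were higher with baicalein. MVD and LSS encode enzymes of cholesterol synthesis, of which MVD rose with both isomers and LSS with genistein. ACLY encodes ATP citrate lyase, which makes the acetyl-CoA for fatty acids and sterols, and moved in opposite directions. In HSPA6 (chr1:161524290-161524539, forward strand) and HSPA1B (chr6:31827488-31827737, forward strand) capitals mark the heat shock element GAANNTTC. In MVD (chr16:88663092-88663341, reverse strand), LSS (chr21:46228775-46229024, reverse strand) and ACLY (chr17:41919023-41919272, reverse strand) capitals mark the CCAAT box, CCAAT or its reverse complement ATTGG.
HSPA6: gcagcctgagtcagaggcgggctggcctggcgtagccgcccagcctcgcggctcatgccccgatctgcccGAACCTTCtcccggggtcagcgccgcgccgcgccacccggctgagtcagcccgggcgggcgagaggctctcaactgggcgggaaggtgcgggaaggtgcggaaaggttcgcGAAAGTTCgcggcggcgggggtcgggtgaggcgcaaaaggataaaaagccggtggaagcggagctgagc
HSPA1B: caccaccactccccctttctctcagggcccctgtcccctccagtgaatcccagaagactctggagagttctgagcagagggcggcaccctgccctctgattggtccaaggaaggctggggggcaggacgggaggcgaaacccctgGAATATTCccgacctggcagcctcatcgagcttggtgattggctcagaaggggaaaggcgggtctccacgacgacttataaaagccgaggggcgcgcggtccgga
MVD: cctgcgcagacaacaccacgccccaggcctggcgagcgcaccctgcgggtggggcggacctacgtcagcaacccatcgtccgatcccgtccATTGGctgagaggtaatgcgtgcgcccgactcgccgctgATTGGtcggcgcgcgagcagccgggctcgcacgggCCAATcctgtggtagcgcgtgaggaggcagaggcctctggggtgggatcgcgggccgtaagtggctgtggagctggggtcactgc
LSS: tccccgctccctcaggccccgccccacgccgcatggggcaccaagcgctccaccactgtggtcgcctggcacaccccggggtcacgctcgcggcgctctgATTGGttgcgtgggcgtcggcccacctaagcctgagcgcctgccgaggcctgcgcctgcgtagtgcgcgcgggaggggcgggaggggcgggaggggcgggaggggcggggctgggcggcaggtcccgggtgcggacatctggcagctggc
ACLY: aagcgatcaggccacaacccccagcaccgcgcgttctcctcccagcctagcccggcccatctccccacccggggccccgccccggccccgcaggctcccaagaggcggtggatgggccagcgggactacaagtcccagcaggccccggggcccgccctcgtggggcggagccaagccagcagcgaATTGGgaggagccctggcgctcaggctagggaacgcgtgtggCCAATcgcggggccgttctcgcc
The matches began 180 and 69 bases before the start in HSPA6, 105 in HSPA1B, 159, 120 and 85 in MVD, 150 in LSS, and 65 and 23 in ACLY. Both strands were searched, a match and its own mirror image were counted once, and matches to different motifs could share bases. The heat shock element was found in 8 of the 19 chaperone genes with a promoter in the table, or 42.1%, and in 4.12% of the 11325 promoters of tested genes. A CCAAT box was found in 15 of 18 cholesterol genes (83.3%), in 6 of 16 fatty acid genes (37.5%) and in 35.5% of promoters of tested genes. The sterol regulatory element TCACNCCAC was found in 1 of 18 cholesterol genes, in 0 of 16 fatty acid genes and in 0.857% of promoters of tested genes. Of the chaperone genes, 5 of the 10 higher with baicalein held a heat shock element, as did 1 of the 3 higher with genistein and 2 of the 6 not called. BAG3, higher with baicalein, held 0, and HSPA8, higher with genistein, held 2, while HSPA6 is not one of the 19. These matches describe letters in these windows and not bound sites. Other spellings of the heat shock element were not searched, so a promoter without a match may still hold one.

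The isomers left LNCaP cells with widely different transcript levels at 20 µM. Of 16985 genes tested, 8278, or 48.7%, differed between genistein and baicalein at an adjusted p under 0.05. Genistein was higher for 4316 (25.4% of the genes tested) and baicalein for 3962 (23.3%). That balance turned with the scaling and the libraries fitted: 4033 against 4228 with RLE size factors, 4612 against 3473 with upper-quartile scaling and 2978 against 3569 with the compared groups alone. A stricter test, of a difference larger than 2-fold, was passed by 804 genes higher with genistein (4.73%) and by 862 higher with baicalein (5.08%). The median log2 difference over all genes was 0.02, and its median size without sign was 0.59. The libraries of the isomers did not overlap for 9110 genes, or 53.6%. Against the same untreated libraries, 2791 genes (16.4%) changed with genistein, 1412 of them up, and 9708 (57.2%) with baicalein, 4992 of them up. Of the 7454 genes called against untreated with baicalein and not with genistein, 5620 also differed between the isomers directly. Of the 537 called with genistein and not with baicalein, 360 did. The gene lists below are counted over members that passed the filter on low counts. Their counts are to be read against the 48.7% of all genes that differed, 25.4% higher with genistein and 23.3% with baicalein. A gene high in a single group can pass through that group, so these counts are descriptions, most of all where many listed genes did not pass. The plot of differences by level shows both the breadth of the differences and the genes that carry the largest.

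**Figure D1:**
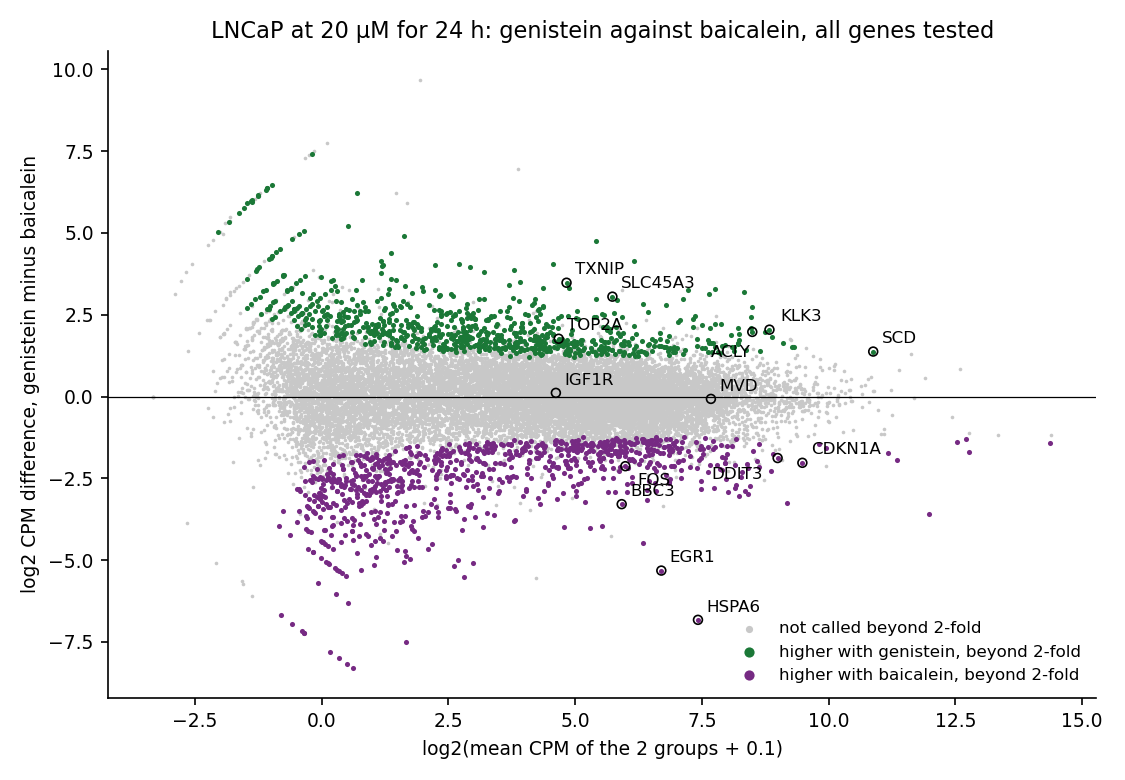
Each point is 1 of 16985 genes, with the log2 mean CPM of the genistein and baicalein groups on the x axis and the log2 difference, genistein minus baicalein, on the y axis. Green points (804) and purple points (862) passed the test of more than 2-fold; of the labelled genes HSPA6 lies lowest at -6.82 and TXNIP highest at 3.48, while MVD lies at -0.07.

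Many androgen-induced genes fell with both isomers and fell further with baicalein. KLK3, which encodes prostate-specific antigen (chr19:50854915-50860764), read 757, 721 and 723 CPM with genistein and 154, 248 and 131 CPM with baicalein, from 1376, 1486 and 1628 CPM. Every baicalein library was below every genistein library, which in turn was below every untreated one (log2 difference 2.04 ± 0.21, adjusted p = 6.21e-06). SLC45A3, which encodes prostein, showed the widest gap of the androgen-induced genes, 98.7, 94 and 91.8 CPM against 9.18, 12.1 and 13.1 CPM (log2 difference 3.05 ± 0.15, adjusted p = 1.48e-08). TMPRSS2, the androgen-driven protease gene, differed by 1.70 ± 0.12 (adjusted p = 2.72e-07), FKBP5, a receptor co-chaperone, by 1.24 ± 0.10 (adjusted p = 1.24e-06), and ACP3, prostatic acid phosphatase, by 2.13 ± 0.11 (adjusted p = 1.81e-08).

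Of 28 androgen-induced genes tested (30 listed), 20 were higher with genistein and 0 with baicalein, with a median difference of 1.27. Against untreated cells 14 fell and 2 rose with genistein, and 22 fell and 1 rose with baicalein. The androgen-repressed genes did not mirror them: 8 of 10 were again higher with genistein, with a median of 2.32, and CAMK2N1 (an inhibitor of CaM kinase, -0.54), named after its value was seen, was the 1 higher with baicalein. These 8 include 4 UGT2B genes, which encode enzymes that glucuronidate androgens. UGT2B17 rose with genistein from 138, 143 and 129.5 to 187, 192 and 198 CPM and fell with baicalein to 29.9, 26.6 and 27 CPM (log2 difference 2.79 ± 0.09, adjusted p = 6.29e-10); the UGT2B genes are close copies, and how reads that fit several were counted is not given in the sources used here. FOLH1 (chr11:49145092-49208638), the gene of PSMA, stood at 918, 984 and 956 CPM with genistein, at 349, 317 and 326 CPM with baicalein and at 859.5, 908 and 870.4 CPM without drug. The genistein libraries lay slightly above the untreated ones without passing the test (log2 change 0.12, adjusted p = 0.366), and the baicalein libraries lay far below both (log2 difference 1.53 ± 0.08, adjusted p = 3.56e-08). Its near copy FOLH1B makes the exact level uncertain. HOXB13, a homeobox gene of the prostate lineage, was 4.55-fold higher with genistein (log2 difference 2.19 ± 0.14, adjusted p = 1.22e-07). The epithelial keratin gene KRT18, the 1 of 11 tested luminal markers that was higher with baicalein, differed by -0.43 (adjusted p = 0.0032) and was named after its value was seen; without genistein replicate 3 the 1 became 3. Mesenchymal and PC-3 markers summed to 403.3 to 447.1 CPM with genistein and 169.6 to 185.9 CPM with baicalein, against 956.9 to 1022 CPM without drug. Most of the sum with either isomer was FN1, fibronectin, at 407 ± 23.1 against 143 ± 3.71 CPM (SD, n = 3). Of 15 such genes 6 passed the filter, and FN1 was the 1 higher with genistein, while VIM, vimentin (14.1 against 21.2 CPM), and ZEB1, a repressor of epithelial genes (0.54 against 7.14 CPM), both named after their values were seen, were higher with baicalein. Basal epithelial markers summed to between 9.035 and 10.67 CPM with genistein, 17.68 and 22.74 CPM with baicalein and 7.066 and 8.048 CPM without drug, and 2 of the 3 that passed, of 8 listed, were higher with baicalein. Of 11 neuroendocrine markers 3 passed the filter and were higher with genistein, 1 of them without genistein replicate 1. All 11 summed to between 524.3 and 624.5 CPM with genistein and between 272.8 and 293.6 CPM with baicalein, of which DDC gave 538 ± 51 and 267 ± 8.27 CPM. The part of such shifts in the androgen result was not tested.

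**Figure D2:**
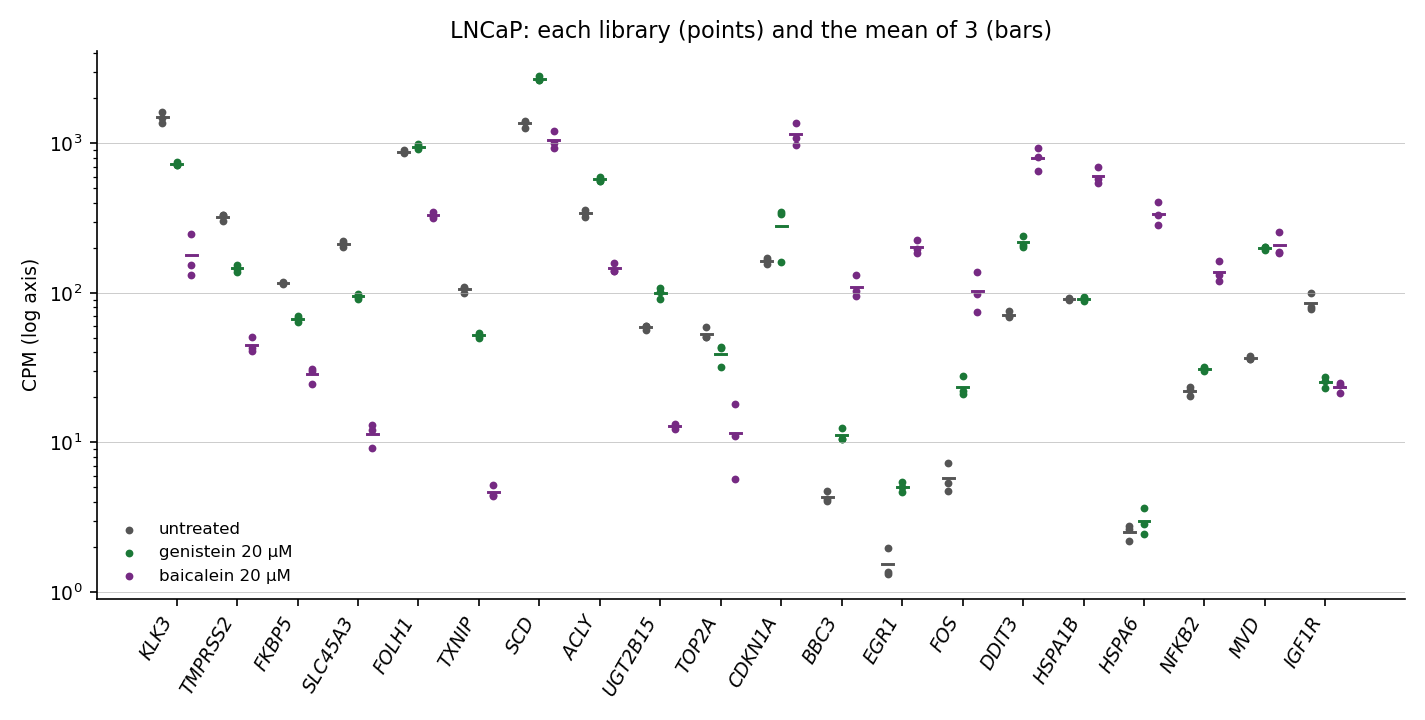
Points are the CPM of single LNCaP libraries on a log axis and bars the mean of 3, for 20 named genes without drug (grey), with genistein (green) and with baicalein (purple) at 20 µM. The libraries of the isomers overlap for MVD and IGF1R and are apart for the other 18 genes, with KLK3 at 734 CPM against 178 CPM and EGR1 at 5.06 CPM against 203 CPM.

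Fatty acid synthesis genes were higher with genistein than with baicalein as a block, whereas cholesterol synthesis genes rose with both. Of 17 fatty acid genes tested, 15 were higher with genistein and 0 with baicalein, with a median difference of 1.24. Against untreated cells 9 rose and 0 fell with genistein, and 5 rose and 9 fell with baicalein. ACLY (chr17:41866917-41930542) went from 322, 345 and 357 CPM without drug to 596, 562 and 565 CPM with genistein and to 139, 159 and 140.3 CPM with baicalein. No library of 1 group reached those of another, and the isomers differed 3.93-fold (log2 difference 1.97 ± 0.11, adjusted p = 4.14e-08). SCD, the desaturase that makes oleate, stood at 2841, 2675 and 2639 CPM with genistein and at 930.1, 1204 and 1013 CPM with baicalein, above and below its 1273, 1423 and 1395 CPM without drug (log2 difference 1.37 ± 0.11, adjusted p = 5.88e-07). FADS2, a desaturase of polyunsaturated fatty acids, showed the same order, with 453, 458 and 436 CPM against 126, 169.7 and 142 CPM (log2 difference 1.63 ± 0.13, adjusted p = 7.87e-07). ELOVL6, the elongase of saturated chains, rose with both drugs and further with genistein, at 128, 130 and 139.7 CPM against 51.2, 41.1 and 39.4 CPM and 21.6, 21.6 and 18.38 CPM without drug (log2 difference 1.59 ± 0.13, adjusted p = 7.95e-07).

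Of 24 cholesterol genes tested (25 listed), 22 rose and 0 fell with genistein, and 18 rose and 1 fell with baicalein. Between the isomers 54.2% differed, against 48.7% of all genes, with 12 higher with genistein and 1 with baicalein. The other 11 did not pass the test, and the median difference was 0.48. MVD, which makes isopentenyl diphosphate, read 204, 193 and 202 CPM with genistein and 186, 255 and 189 CPM with baicalein from 36.3, 36 and 37.6 CPM without drug. Its isomer libraries overlapped and the difference was held close to 0 (-0.07, 95% interval -0.35 to 0.20). NSDHL, a later demethylation step, behaved likewise, at 127 ± 8.59 CPM against 142 ± 23.1 CPM (-0.16, 95% interval -0.45 to 0.13). FDFT1, squalene synthase, rose with both drugs and was 1.84-fold higher with genistein (log2 difference 0.88 ± 0.10, adjusted p = 2.07e-05). LSS, which closes the sterol ring system, rose with genistein to 348, 339 and 346 CPM from 125, 122 and 117 CPM, and stood at 116, 176 and 138 CPM with baicalein (log2 change 0.24, adjusted p = 0.15), which left the isomers apart (log2 difference 1.26 ± 0.14, adjusted p = 1.09e-05). TM7SF2, a sterol reductase, was the 1 member that fell with baicalein, at 80.5 CPM against 140 CPM without drug and 198 CPM with genistein (log2 difference 1.30 ± 0.11, adjusted p = 1.5e-06). MVK, mevalonate kinase, was the member higher with baicalein (-0.67, adjusted p = 0.00156) and was named after its value was seen. HMGCS1, HMG-CoA synthase, had high levels and a wide spread, 5095, 6685 and 1642 CPM with genistein and 613, 2045 and 2774 CPM with baicalein. Its groups overlapped and it was not called (1.30, 95% interval -0.06 to 2.67, adjusted p = 0.104), although it was without genistein replicate 3 (log2 1.71, adjusted p = 0.0403).

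Mitosis, replication and recombination repair genes were mostly higher with genistein, while checkpoint, cyclin and topoisomerase genes were split. Of 40 mitosis genes tested, 30 were higher with genistein and 0 with baicalein (median 1.19), and of 43 replication genes 29 and 1 (median 0.83). The 1 replication gene higher with baicalein was CCNE1, cyclin E1 (-0.59), named after its value was seen. With genistein 4 mitosis genes fell against untreated cells and 0 rose, and with baicalein 34 fell and 0 rose. KIF4A, a chromosome-associated kinesin, stood at 11.5, 10.4 and 9.75 CPM with genistein, close to its 10.5, 14.5 and 9.94 CPM without drug, and at 0.966, 1.23 and 1.58 CPM with baicalein (log2 difference 3.06 ± 0.21, adjusted p = 2.11e-07). BUB1B, a spindle checkpoint kinase, read 11.2, 12 and 10.1 CPM against 2.03, 2.13 and 1.26 CPM (log2 difference 2.60 ± 0.17, adjusted p = 2e-07). TOP2A, the proliferation-linked topoisomerase, was 31.8, 43.2 and 42.8 CPM with genistein and 18.1, 5.66 and 11.1 CPM with baicalein, apart but with more spread (log2 difference 1.77 ± 0.34, adjusted p = 0.000843). Of 10 topoisomerase and related repair genes tested, 60% differed, 3 higher with each isomer (median -0.21). RRM1, the large subunit of ribonucleotide reductase, fell with baicalein alone past the test, to 21.5, 29.6 and 27.5 CPM from 89.5, 119.7 and 97.7 CPM, with 87, 90.8 and 80.1 CPM under genistein (log2 difference 1.71 ± 0.14, adjusted p = 8.39e-07).

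Of 32 homologous recombination and Fanconi genes tested (33 listed), 17 were higher with genistein and 2 with baicalein (median 0.81); the 2 became 4 without baicalein replicate 2. FANCI, a subunit that marks crosslink repair, was 26.4 ± 1.02 CPM against 9.41 ± 0.629 CPM (log2 difference 1.48 ± 0.10, adjusted p = 2.11e-07). HELQ, a repair helicase, went the other way, at 15.7 ± 1.78 CPM against 46.4 ± 10.7 CPM (log2 difference -1.56 ± 0.18, adjusted p = 1.64e-05), as did RAD51C (-0.81), named after its value was seen. Of 40 genes of end joining, excision and mismatch repair 55% differed, near the 48.7% of all genes. Genistein was higher for 14 of these genes and baicalein for 8, with a median of 0.15. PARP1, which senses strand breaks, had the lowest adjusted p of these: 226, 211 and 214 CPM with genistein and 36.1, 50.5 and 48.1 CPM with baicalein, from 322, 393 and 369 CPM (log2 difference 2.27 ± 0.14, adjusted p = 1.31e-07). Of 19 checkpoint genes tested, 52.6% differed, 6 higher with genistein and 4 with baicalein (median 0.01). CLSPN, the adaptor that activates CHK1, fell from 12.5, 14.6 and 12.8 CPM to 6.51, 5.84 and 5.73 CPM with genistein and to 0.386, 0.657 and 0.949 CPM with baicalein (log2 difference 3.18 ± 0.23, adjusted p = 3.9e-07). Of 18 cyclin and CDK inhibitor genes tested (19 listed), 44.4% differed, 4 higher with each isomer (median 0.08). CCND1, cyclin D1, stood at 140.1 CPM against 47.9 CPM (log2 difference 1.55 ± 0.12, adjusted p = 7.81e-07). MYC differed by 2.09 ± 0.78 (adjusted p = 0.0417), but its libraries read 11.2, 64.9 and 12 CPM with genistein and 11.8, 4.27 and 4.75 CPM with baicalein, so that 1 genistein library set the mean. Without genistein replicate 2 the MYC difference was 0.75 (adjusted p = 0.393), and it was also lost without baicalein replicate 2 (1.83, adjusted p = 0.123) or 3 (1.88, adjusted p = 0.121). MYC was lost too with no filter on low counts (adjusted p = 0.11), with the compared groups alone (adjusted p = 0.1) and with a replicate block (adjusted p = 0.0947).

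Target genes of p53 were higher with baicalein. Of 29 tested (30 listed), 20 were higher with baicalein and 2 with genistein, with a median difference of -1.28. Those 2 were TP53INP1 (0.99) and the decoy death receptor TNFRSF10C (2.80), both named after their values were seen. With baicalein 25 rose against untreated cells and 2 fell, and with genistein 4 rose and 0 fell. CDKN1A (chr6:36676460-36687337), which encodes the cell cycle inhibitor p21, stood at 159.9, 336 and 349.7 CPM with genistein and at 978, 1380 and 1087 CPM with baicalein. The first genistein library lay within the untreated range of 156, 165 and 171 CPM and the other two above it, while every baicalein library was far higher (log2 difference -2.03 ± 0.24, adjusted p = 2.2e-05). MDM2, the ubiquitin ligase of p53, was 149, 206 and 231 CPM against 649, 319.8 and 458 CPM, apart but with wide spread (log2 difference -1.28 ± 0.27, adjusted p = 0.00169). BBC3, which encodes the BH3-only protein PUMA, read 10.6, 10.5 and 12.4 CPM with genistein, 95.1, 131 and 102 CPM with baicalein and 4.72, 4.16 and 4.08 CPM without drug, and so rose with both, 9.78-fold higher with baicalein than with genistein (log2 difference -3.29 ± 0.18, adjusted p = 5.11e-08). AEN, an apoptosis nuclease, and TNFRSF10B, the death receptor DR5, were 6.91-fold and 3.9-fold higher with baicalein (log2 difference -2.79 ± 0.14, adjusted p = 1.76e-08, and log2 difference -1.96 ± 0.12, adjusted p = 7.64e-08). Of 19 BCL2 family genes tested (21 listed), 9 were higher with baicalein and 3 with genistein. Their median of -0.42 shrank to -0.18 without baicalein replicate 1, and the 9 became 6 without genistein replicate 2. HRK, a BH3-only gene, was 14.4 ± 1.25 CPM against 30.4 ± 5.56 CPM (log2 difference -1.08 ± 0.17, adjusted p = 0.000168), and BOK, an effector, was the other way at 28.2 ± 2.51 CPM against 14.9 ± 2.99 CPM (log2 difference 0.92 ± 0.15, adjusted p = 0.000306).

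Immediate early genes and NF-kB targets were mostly higher with baicalein. Of 20 immediate early genes that passed the filter, of 25 listed, 19 were higher with baicalein and 1, MYC, with genistein. MYC was not called without genistein replicate 2, baicalein replicate 2 or baicalein replicate 3. Nor was it called with no filter, with the compared groups alone or with a replicate block. With baicalein 19 rose against untreated cells and 1 fell, and with genistein 5 rose and 0 fell. EGR1 (chr5:138465479-138469303), a zinc finger factor, stood at 1.35, 1.96 and 1.32 CPM without drug, at 4.68, 5.03 and 5.47 CPM with genistein and at 184, 228 and 196 CPM with baicalein. It rose with both isomers, and the baicalein libraries were 39.9-fold above the genistein libraries (log2 difference -5.32 ± 0.16, adjusted p = 6.1e-10). FOS followed the same order, with 21.2, 21.9 and 27.7 CPM against 138, 74.5 and 97.8 CPM and 7.32, 5.38 and 4.77 CPM without drug (log2 difference -2.13 ± 0.23, adjusted p = 8.23e-06). ATF3 was 44.4, 79.9 and 75.8 CPM against 145, 320.2 and 376 CPM, with wide spread in both groups (log2 difference -2.07 ± 0.57, adjusted p = 0.00929). ZFP36, which destabilizes cytokine mRNA, and CCN1, a matricellular gene, moved with baicalein alone past the test (log2 difference -2.67 ± 0.13, adjusted p = 1.77e-08, and log2 difference -2.52 ± 0.13, adjusted p = 2.4e-08).

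Of 15 MAP kinase feedback genes that passed the filter, of 19 listed, 10 were higher with baicalein and 3 with genistein. DUSP5, a nuclear ERK phosphatase, was 4.23 ± 0.337 CPM against 22.8 ± 2.21 CPM (log2 difference -2.43 ± 0.22, adjusted p = 2.16e-06). SPRY4, an inhibitor of receptor kinase signalling, had the other order: it fell from 40.9, 44 and 49.8 CPM to 7.98, 7.61 and 5.66 CPM with genistein and to 0.676, 0.739 and 0.844 CPM with baicalein (log2 difference 3.22 ± 0.18, adjusted p = 5.78e-08). The other 2 higher with genistein were CCND1, given above, and the ETS factor ETV1 (1.89), named after its value was seen. Of 24 NF-kB genes listed only 14 passed the filter, 11 of them higher with baicalein and 0 with genistein. RELB and NFKB2, subunits of the noncanonical arm, stood at 5.64, 5.03 and 4.41 and at 32, 31.7 and 29.9 CPM with genistein and at 37.3, 52.4 and 43.4 and at 121, 163 and 132 CPM with baicalein (log2 difference -3.14 ± 0.18, adjusted p = 5.11e-08, and log2 difference -2.15 ± 0.15, adjusted p = 3.22e-07). TNFAIP3, which ends NF-kB signalling, was 3.65 ± 0.35 CPM against 35.6 ± 8.03 CPM (log2 difference -3.29 ± 0.26, adjusted p = 7.81e-07), and the cytokine gene TNF was 0.26, 0.475 and 0.263 CPM against 5.8, 6.73 and 8.12 CPM. The 3 members not called were NFKB1, SOD2 and IL1B, named after their values were seen, of which NFKB1 differed by -0.04 and IL1B by -0.57.

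Chaperone and metal response genes were higher with baicalein, while the ATF4 genes split. Of 21 chaperone genes tested, 11 were higher with baicalein and 4 with genistein. Their median of -0.70 was -0.45 without genistein replicate 1. HSPA1B (chr6:31827738-31830254), whose promoter is printed above, was 92.4, 88.5 and 94.3 CPM with genistein, overlapping its 89.2, 91.6 and 92.6 CPM without drug, and 542, 691 and 581 CPM with baicalein (log2 difference -2.72 ± 0.12, adjusted p = 1.01e-08). HSPA6 (chr1:161524540-161526894), an HSP70 gene that is not on that list and was named for the size of its difference, read 2.86, 3.67 and 2.44 CPM with genistein, 284, 404 and 331 CPM with baicalein and 2.18, 2.63 and 2.76 CPM without drug. The genistein libraries stayed near the untreated ones and the baicalein libraries were 113-fold above those of genistein (log2 difference -6.82 ± 0.22, adjusted p = 6.1e-10). Both HSP70 genes have near copies, so their counts are uncertain. BAG3, an HSP70 partner in autophagy, and CRYAB, a small heat shock protein, were 3.49-fold and 8.43-fold higher with baicalein (log2 difference -1.80 ± 0.13, adjusted p = 4.35e-07, and log2 difference -3.08 ± 0.20, adjusted p = 1.69e-07). The 4 chaperone genes higher with genistein, named after their values were seen, were the constitutive HSPA8 (0.82), the mitochondrial HSPD1 (0.52) and HSPE1 (0.36), and FKBP4 (0.37), a receptor co-chaperone.

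Of 10 genes on the metallothionein list 5 passed the filter, and those 5 were higher with baicalein. MT2A, a zinc-binding metallothionein, rose from 192, 204 and 210.5 CPM to 546, 515 and 503 CPM with genistein and to 1019, 1332 and 1090 CPM with baicalein (log2 difference -1.14 ± 0.12, adjusted p = 7.18e-06), and MT1X differed 3.18-fold. The metallothioneins are close copies of each other, and SLC30A1, the zinc exporter counted with them, differed by -3.25 (named after its value was seen). Of 34 ATF4 genes, 16 were higher with genistein and 11 with baicalein; the 16 became 7 with the compared groups alone, and the median of 0.20 became 0.13 without baicalein replicate 1 or genistein replicate 1. DDIT3, which encodes CHOP, was 242, 209 and 202 CPM with genistein and 659, 938 and 807 CPM with baicalein, above 69.8, 75.6 and 68.5 CPM in both (log2 difference -1.88 ± 0.14, adjusted p = 5.33e-07). SESN2, a sestrin that restrains mTORC1, was 106 ± 4.19 CPM against 523 ± 102 CPM (log2 difference -2.31 ± 0.15, adjusted p = 1.38e-07). AARS1, alanyl-tRNA synthetase, went the other way: 474, 433 and 425 CPM with genistein, 363, 400.4 and 416 CPM without drug and 133, 162 and 141 CPM with baicalein (log2 difference 1.61 ± 0.11, adjusted p = 2.23e-07). The NRF2 list was split as well: of the 22 that passed (26 listed) 59.1% differed, 8 higher with genistein and 5 with baicalein. The 8 became 5 without genistein replicate 1 or baicalein replicate 3. HMOX1, heme oxygenase, rose with both, to 53.1, 45.2 and 47.2 CPM with genistein and to 104, 155 and 116 CPM with baicalein (log2 difference -1.37 ± 0.15, adjusted p = 1.33e-05). GSR, glutathione reductase, was higher with genistein, 301 ± 35.1 CPM against 151 ± 8.69 CPM (log2 difference 1.00 ± 0.11, adjusted p = 1.02e-05).

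Transcription and splicing regulators, histones and mitochondrial mRNAs were higher with baicalein. Of 20 elongation genes tested, 15 were higher with baicalein and 0 with genistein (median -0.58). BRD2, a BET bromodomain gene, was 176, 145 and 136 CPM with genistein and 328, 374 and 289 CPM with baicalein (log2 difference -1.12 ± 0.12, adjusted p = 1.19e-05). CCNT2, cyclin T2, read 8.5, 6.18 and 6.06 CPM against 424, 24.1 and 13.1 CPM, so that 1 baicalein library set the mean; the difference of -4.48 ± 1.17 (adjusted p = 0.00673) became -1.43 (adjusted p = 0.0965) without baicalein replicate 1. Of 20 splicing genes 11 were higher with baicalein and 2 with genistein (median -0.68). CLK1, a kinase of SR proteins, stood at 51.9, 63.6 and 65.3 CPM with genistein and at 546, 352 and 481 CPM with baicalein, from 43.3, 40.3 and 41.2 CPM (log2 difference -2.93 ± 0.18, adjusted p = 1.14e-07), and CLK4 at 29.3 CPM against 123.4 CPM (log2 difference -2.07 ± 0.16, adjusted p = 6.72e-07).

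Replication-dependent histone genes, whose mRNA normally ends without a poly(A) tail, were higher with baicalein for 13 of the 16 that passed the filter (24 listed) and with genistein for 1, H2BC21 (0.32, named after its value was seen). H4C8 read 37.8, 31.7 and 35.6 CPM with genistein and 194, 213 and 192 CPM with baicalein (log2 difference -2.51 ± 0.09, adjusted p = 2.07e-09), and histone genes are close copies. Of 13 mitochondrially encoded mRNAs, 12 were higher with baicalein and 0 with genistein (median -1.14). MT-ATP6, a subunit of ATP synthase, stood apart, with 641, 639.5 and 570.5 CPM against 6952, 8136 and 7323 CPM and 461, 494 and 513 CPM without drug (log2 difference -3.60 ± 0.13, adjusted p = 1.15e-09). MT-ND2, a subunit of complex I, differed 3.24-fold (log2 difference -1.70 ± 0.11, adjusted p = 2.02e-07). MT-ATP6 and MT-ATP8 overlap, so the split of reads between them is uncertain. The library kit does not mark strand, so the split between mitochondrial genes on opposite strands is uncertain too.

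The ribosomal protein, proteasome and respiratory chain lists had medians near 0, and fewer of their members differed (14.3%, 30.3% and 36%) than of all genes (48.7%). Of 70 cytosolic ribosomal protein genes, 60 did not pass the test, 7 were higher with baicalein and 3 with genistein, with a median of -0.13 and a range from -0.67 to 0.53. The 7 became 14 without baicalein replicate 1 or with RLE size factors, 19 with GC and length trends removed, and 4 without baicalein replicate 2 or genistein replicate 3 or with upper-quartile scaling. The 3 became 1 without genistein replicate 1 or 3 or baicalein replicate 3 and 5 without baicalein replicate 2. RPL38 and RPL3 marked its ends, at 299.6 against 477 CPM and 2067 against 1432 CPM. Of 33 proteasome genes 5 were higher with each isomer (median 0.01), and of 50 nuclear-encoded respiratory chain genes 14 with genistein and 4 with baicalein (median 0.08). The counts higher with baicalein moved with single libraries: for the proteasome to 3 without baicalein replicate 1 or 3 or genistein replicate 2, and for the respiratory chain to 1 without genistein replicate 2, to 2 without genistein replicate 3 or baicalein replicate 3 and to 6 without baicalein replicate 1. Over all alternatives they ran from 3 to 7 and from 1 to 6. The 23 unfolded protein response genes also had a median of 0.00, but 56.5% of them differed, 6 higher with genistein and 7 with baicalein. Those higher with baicalein included ERN1, the ER stress sensor, at 81.8 ± 22.1 against 195 ± 34.1 CPM (log2 difference -1.25 ± 0.18, adjusted p = 0.000107). Across 14 other ways of computing the comparison, the lists of androgen-induced, fatty acid, mitosis, replication, p53, chaperone and elongation genes each kept the sign of their median, as did the mitochondrial mRNAs in the 13 that include them. The medians of the proteasome, unfolded protein response, checkpoint, cyclin, interferon, lysosome, MYC network, oestrogen and aryl hydrocarbon receptor lists changed sign in at least 1 of them. All lists were chosen with earlier results of these data known.

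**Figure D3:**
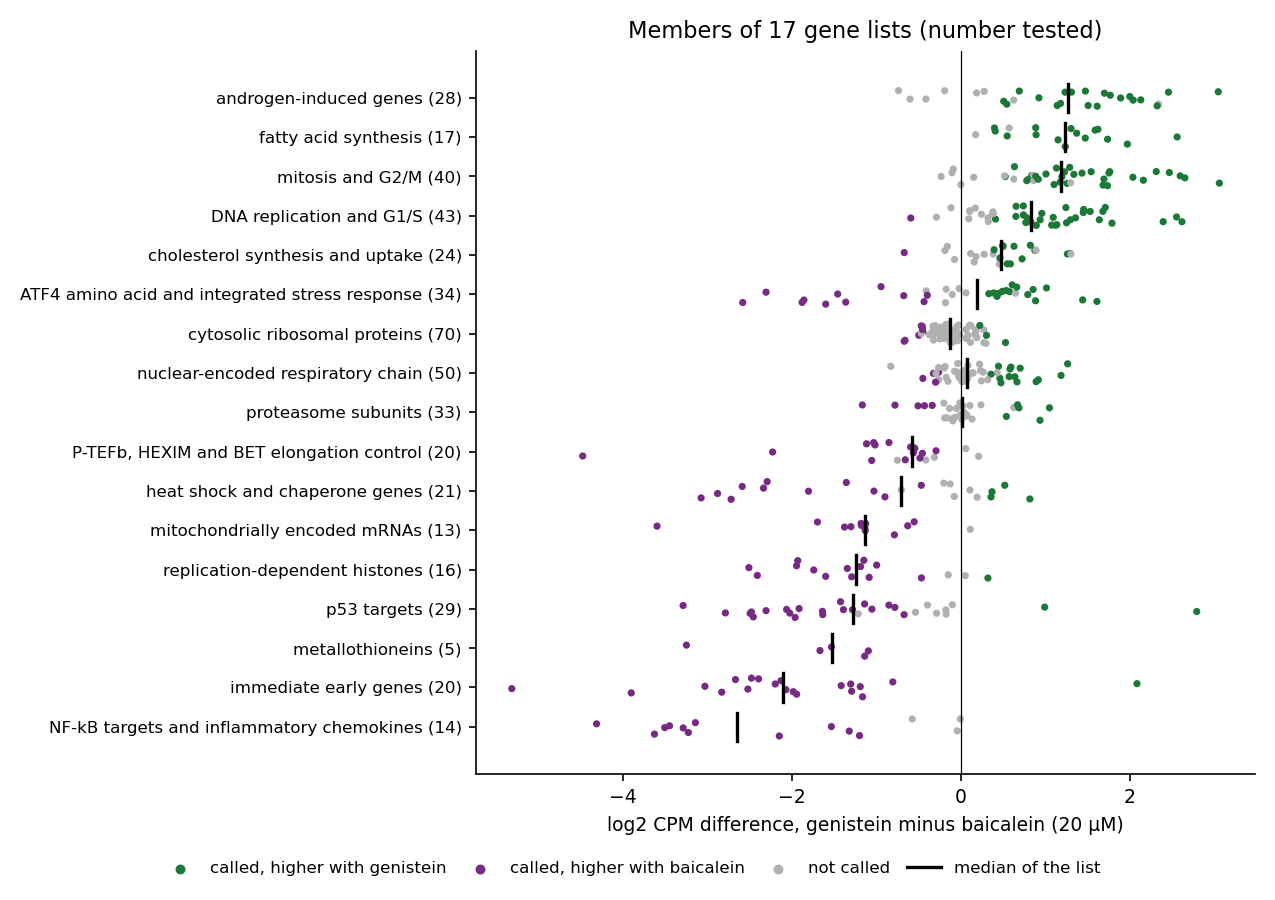
Each point is a member that passed the filter on low counts in 1 of 17 gene lists, with its log2 difference, genistein minus baicalein at 20 µM, on the x axis and the number tested in brackets; black bars are list medians and the vertical position within a list carries no value. Androgen-induced genes have a median of 1.27 and p53 targets one of -1.28, while ribosomal protein genes cluster around -0.13.

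The largest differences among protein-coding genes that averaged 5 CPM or more with either isomer, and whose libraries did not overlap, lay mostly outside the lists. KCNN2, a calcium-activated potassium channel, read 156, 149.6 and 101 CPM with genistein and 10.3, 5.42 and 7.38 CPM with baicalein (log2 difference 4.13 ± 0.25, adjusted p = 9.33e-08). ADRA2A, an adrenergic receptor, was 48, 41.8 and 43.3 CPM against 1.35, 3.78 and 2.85 CPM (log2 difference 4.04 ± 0.25, adjusted p = 1.23e-07), and fell with baicalein alone past the test. TXNIP, which binds thioredoxin and restrains glucose uptake, fell with both isomers, from 100.5, 109.8 and 108 CPM to 54.3, 49.9 and 51.8 CPM with genistein and to 5.22, 4.35 and 4.43 CPM with baicalein (log2 difference 3.48 ± 0.10, adjusted p = 6.1e-10). ENDOD1 (273 against 28.4 CPM), RNF43, which removes Wnt receptors (14.1 against 0.883 CPM), CLDN8, a claudin (23.3 against 2.21 CPM), AKAP5 (53.4 against 5.39 CPM) and GPER1, a membrane oestrogen receptor (5.51 against 0.511 CPM), were also among the 12 largest differences in favour of genistein. TRIM49D1, TRIM49D2 and PCDHGA3 belong to families of near-identical or overlapping genes and are uncertain.

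On the baicalein side, HSPA6 and EGR1 stood beside genes that averaged under 1 CPM with genistein. TBX15, a T-box factor, read 0.434, 0.408 and 0.263 CPM against 6.28, 6.57 and 6.54 CPM (log2 difference -4.12 ± 0.35, adjusted p = 1.3e-06). PTGER3, a prostaglandin receptor, SOCS1, a suppressor of cytokine signalling, and ARHGAP25, a Rac GTPase-activating protein, stood at 12.7, 5.04 and 5.92 CPM with baicalein and at 0.747, 0.274 and 0.199 CPM with genistein. GZMM, FAM171B and IFITM10 showed the same order, at 5.83, 12.4 and 6.27 CPM with baicalein.

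In 142 genes the isomers moved transcript levels in opposite directions, each called against untreated cells with each drug and called between the drugs. Genistein raised and baicalein lowered 62 of them, or 0.365% of the genes tested. Of these, 52 were protein-coding and averaged 5 CPM or more with either isomer. Genistein lowered and baicalein raised 80, or 0.471%, of which 55 met the same 2 conditions. Both changes exceeded 1.5-fold in 64 and 2-fold in 23. The 2 comparisons with untreated cells share their 3 control libraries. The count depends on single libraries: the first group held 27, 24 and 25 genes without untreated replicate 1, 2 or 3 and 28, 35 and 35 without genistein replicate 1, 2 or 3. The second held 49, 44 and 50 without untreated replicate 1, 2 or 3 and 42 and 49 without genistein replicate 2 or 3. The leading genes of each group follow.

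The 62 genes that genistein raised include 3 of the fatty acid list (ACLY, SCD and FADS2), 1 of the cholesterol list (TM7SF2) and 4 of the androgen-repressed list, UGT2B17 among them. UGT2B15 rose from 59.7, 56.7 and 60 CPM to 91.6, 108 and 101 CPM with genistein and fell to 13.2, 13 and 12.3 CPM with baicalein, 7.79-fold apart (log2 difference 2.96 ± 0.11, adjusted p = 1.25e-09). TMEFF2, a transmembrane protein of prostate, stood at 448, 418 and 416 CPM with genistein and 114, 121 and 109 CPM with baicalein on either side of 342, 289 and 291 CPM (log2 difference 1.89 ± 0.10, adjusted p = 4.01e-08). SPTLC3, a subunit of the enzyme that starts sphingolipid synthesis, was 12.6, 12.6 and 13.4 CPM, 2.71, 1.4 and 2.85 CPM and, without drug, 7.68, 8.31 and 7.93 CPM (log2 difference 2.48 ± 0.19, adjusted p = 6.89e-07). SLITRK6, a neuronal transmembrane protein, was the furthest apart of the 10 named for size, moving from 17, 12 and 10.1 CPM to 28.1, 38.7 and 45 CPM with genistein and to 5.02, 1.89 and 4.53 CPM with baicalein (log2 difference 3.30 ± 0.35, adjusted p = 9.97e-06). BCL11B, a zinc finger repressor, read 11 ± 1.09 against 3 ± 0.422 CPM with 5.59 ± 0.165 CPM without drug (log2 difference 1.88 ± 0.16, adjusted p = 1.46e-06). RNF144B, TLCD1, CTBS, TRIM2 and DIO1 showed the same order, with differences of 1.41, 1.64, 1.48, 2.24 and 2.09.

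**Figure D4:**
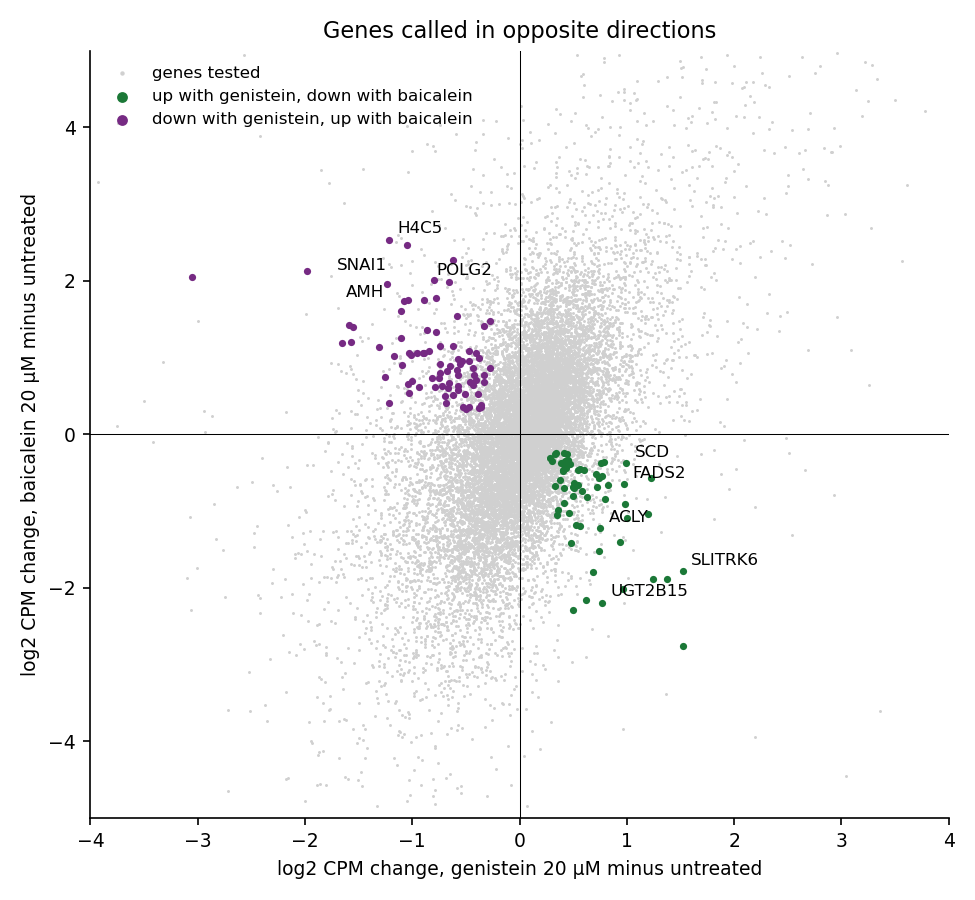
Each grey point is a gene tested, with its log2 change with genistein at 20 µM against untreated on the x axis and with baicalein on the y axis, where both axes share the untreated libraries; 170 genes lie outside the axes. Green points (62) rose with genistein and fell with baicalein, and purple points (80) did the reverse; SLITRK6 lies at 1.52 and -1.78 and H4C5 at -1.21 and 2.54.

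Among the 10 named genes that genistein lowered and baicalein raised, most stood at low levels. POLG2, the accessory subunit of the mitochondrial DNA polymerase, had the highest level, at 18.9, 16.9 and 17.2 CPM without drug, 8.85, 10.8 and 8.89 CPM with genistein and 71.7, 42.9 and 64.3 CPM with baicalein (log2 difference -2.65 ± 0.18, adjusted p = 2.32e-07). AMH, anti-Müllerian hormone, moved from 8.57, 9.05 and 8.04 CPM to 4.68, 4.28 and 3.23 CPM and to 25.7, 30.4 and 29.7 CPM (log2 difference -2.82 ± 0.18, adjusted p = 1.31e-07). ADAM8, a surface metalloprotease, was 3.82, 3.12 and 3.69 CPM with genistein and 11.3, 15.9 and 16.4 CPM with baicalein around 7.32, 6.72 and 7.35 CPM (log2 difference -2.04 ± 0.18, adjusted p = 1.92e-06). SNAI1, a repressor of E-cadherin, read 0.868, 0.611 and 0.922 CPM against 5.02, 6.32 and 5.48 CPM with 1.87, 1.77 and 1.32 CPM without drug (log2 difference -2.80 ± 0.25, adjusted p = 1.64e-06). The histone genes H4C5 and H2BC18 differed by -3.75 and -2.78 and belong to families of close copies. FERMT3, a partner of integrins, SLC8A2, a sodium-calcium exchanger, MTMR11 and TMEM88 made up the rest, with differences of -2.72, -3.52, -1.96 and -2.01. PVT1, a noncoding RNA, also belonged to the 80, at 27.5 ± 1.03 CPM with genistein, 59.3 ± 4.94 CPM with baicalein and 34.6 ± 2.32 CPM without drug.

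For 7072 of 16985 genes, or 41.6%, the 95% interval stayed inside 2-fold in either direction. Of the 8707 genes not called, 4904 had such an interval, and the data did not bound the difference of the others within 2-fold. In 405 genes both isomers changed the level against untreated cells in the same direction and their difference was bounded within 1.5-fold. These 405 were counted only among protein-coding genes that averaged 5 CPM or more with either isomer or without drug. IGF1R, the receptor of insulin-like growth factors, fell from 78.1, 81 and 99.5 CPM to 23.2, 25.9 and 27.2 CPM with genistein and to 24.2, 25 and 21.4 CPM with baicalein. Those libraries overlapped (0.11, 95% interval -0.18 to 0.40). THOP1, a peptidase, rose from 149.9 ± 14 CPM to 375 ± 17.4 and 389 ± 62.6 CPM (-0.05, 95% interval -0.31 to 0.21). NBEAL2, BSN and REG4 fell with both and differed by 0.24, 0.04 and -0.07, while NIBAN1 rose with both and was called between them at -0.38, 95% interval -0.58 to -0.18. MVD and NSDHL of the cholesterol genes, given above, completed the 8 with the largest shared change.

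At the other matched dose, 10 µM, the 2 isomers were compared in the same fit, so that the pair was compared at 2 doses in all. There 1 gene of 16985, or 0.00589%, differed. It was NDST1, which encodes a heparan sulfate sulfotransferase, at 105 ± 1.44 CPM with genistein and 34.4 ± 9.87 CPM with baicalein (SD, n = 3). At 20 µM its order was reversed, 27.6, 19.9 and 23.6 CPM with genistein and 48.9, 64.4 and 51 CPM with baicalein, around 42.3, 52.4 and 42.5 CPM without drug (log2 difference -1.21 ± 0.19, adjusted p = 0.000209). Whether its difference changed with dose was not tested. For several genes that separated the isomers at 20 µM, the 10 µM difference was bounded near 0: ACLY at 0.12 (95% interval -0.10 to 0.35), TXNIP at -0.05 (95% interval -0.25 to 0.14), HSPA1B at 0.15 (95% interval -0.10 to 0.40), DDIT3 at 0.04 (95% interval -0.26 to 0.34) and BBC3 at -0.06 (95% interval -0.47 to 0.36). EGR1 stood at 12.9 ± 0.915 CPM with genistein and 14.4 ± 1.18 CPM with baicalein at 10 µM, above its untreated level and with overlapping spreads, a difference of -0.15 (95% interval -0.45 to 0.14). Of the 8278 genes that differed at 20 µM, 6485, or 78.3%, had a 10 µM interval within 2-fold. The median size of difference of the 8278 was 0.17 at 10 µM and 0.99 at 20 µM. Over all genes tested it was 0.19 at 10 µM and 0.59 at 20 µM. The 8278 were selected by the 20 µM test, which raises their 20 µM median.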

How the data were processed

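RNA from LNCaP cells was extracted with TRIzol, selected for poly(A) and made into libraries with the NEBNext Ultra kit, per the labels' protocols. The deposited table gives raw read counts per gene and library, per the file headers. The submitters' processing notes name fastp, STAR 2.7.6a, featureCounts 1.6.4, DESeq2 1.20.0 and GRCh38 without their roles; strand and multimapping settings are not given in the sources used here. The authors' own comparisons and 18 FPKM columns, whose headers name baicalein 20 µM 6 times and 10 µM never, were not used. Groups came from the sample titles.

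Counts of the 15 LNCaP libraries were fitted with edgeR 4.0.16 in R 4.3.3 (TMM scaling, filterByExpr, robust quasi-likelihood test, 10 residual degrees of freedom, Benjamini-Hochberg adjustment over 16985 genes). A gene is called at an adjusted p under 0.05, every adjusted p is from that test, and glmTreat tested differences beyond 2-fold. A value after ± is the standard error of a log2 difference or the SD of 3 libraries. Alternatives were 2 other scalings, no filter, DESeq2 1.42.0, the compared groups alone, no mitochondrially encoded genes, removal of GC and length trends (GENCODE 29), a replicate block and leaving out single libraries. The procedure was tested on simulated data. Named genes were 20 of interest, the 12 largest differences and the 10 largest opposite changes in each direction, the 4 lowest adjusted p of each list and the 8 largest shared changes. Differences, opposite changes and shared changes were ranked among protein-coding genes that averaged 5 CPM or more in the highest group compared. Some genes that this rule names are not reported here. Comparison, members and lists were chosen with earlier results of these data known.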

Additional observations from a re-analysis of the deposited data

How the results depend on the processing

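The number of genes called between the isomers, 8278, was 6547 with the compared groups alone, 9385 with GC and length trends removed and 8623 with DESeq2, and 7360 to 8279 without 1 library. The opposite-direction counts were the least steady. The 62 genes that genistein raised and baicalein lowered became 41 with upper-quartile scaling, 32 with no filter and 179 with GC and length trends removed. They became 25 with the compared groups and untreated cells alone, and 24 to 92 without 1 library. The 80 of the reverse direction became 160 with GC and length trends removed and 42 to 92 without 1 library. Genes bounded within 2-fold numbered 10930 with no filter, which tests more genes, and those beyond 2-fold higher with genistein 424 with the compared groups alone. The causes of the other shifts were not tested. With the replicate block 7782 genes were called, and 39 were raised by genistein and lowered by baicalein. Deviations of same-numbered libraries of the isomers correlated at -0.294, -0.093 and 0.033, and those of differently numbered ones at -0.263 to 0.324. With 3 libraries per group, such values cannot show whether the numbers tie libraries to a culture or day, which the labels do not state. Of the 206 named genes called, 199 were called in all 14 alternatives that give a test, 7 were lost in at least 1, MYC and CCNT2 among them, and 0 reversed. Most of these genes were named for a low adjusted p or a large difference in these same data. Their steadiness therefore does not speak for the other genes called. Genes at low counts are limited by depth.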

Other observations

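Other gene lists gave the counts below, to be read against the 48.7% of all genes that differed between the isomers at 20 µM. Of 33 hypoxia and glycolysis genes tested (35 listed), 69.7% differed: 18 were higher with genistein and 5 with baicalein (median 0.48). PGK1, phosphoglycerate kinase, stood at 596, 521 and 547 CPM with genistein and at 263, 302 and 280.1 CPM with baicalein (log2 difference 0.98 ± 0.10, adjusted p = 5.18e-06), and ALDOC, an aldolase, rose with genistein and fell with baicalein, at 121 and 51.8 CPM around 74.1 CPM without drug. Of 20 receptor kinase genes and ligands tested (27 listed), 8 were higher with genistein and 4 with baicalein: ERBB3, a receptor of the EGFR family, was 86.9 ± 5.01 against 36.4 ± 0.65 CPM, and IRS2, an adaptor of insulin receptors, was 21.4 ± 1 against 57.6 ± 8.28 CPM (log2 difference -1.43 ± 0.12, adjusted p = 9.08e-07). Of 10 aryl hydrocarbon receptor genes tested (14 listed), 2 were higher with genistein and 3 with baicalein. AHR, the receptor, read 10.2, 13.4 and 3.42 CPM with genistein and 63.4, 24.8 and 35.3 CPM with baicalein (log2 difference -2.19 ± 0.45, adjusted p = 0.00143). CYP1A1, a classic target of that receptor, fell with both, to 0.602 and 1.42 CPM from 4.04 CPM. Of 12 oestrogen genes tested (18 listed), 4 were higher with genistein and 3 with baicalein. GREB1, a target of steroid receptors, fell with both and lay at 17.2 ± 2.19 against 6.2 ± 0.82 CPM (log2 difference 1.48 ± 0.14, adjusted p = 3.67e-06).

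Of 12 nuclear long noncoding RNAs tested (14 listed), 6 were higher with baicalein and 3 with genistein. The snoRNA host genes SNHG1 and SNHG12 stood at 120.1 and 36.7 CPM with baicalein and at 19.4 and 7.79 CPM with genistein. SCHLAP1, a prostate cancer transcript, had the other order, 23 ± 1.01 CPM with genistein against 8.5 ± 0.799 CPM (log2 difference 1.43 ± 0.12, adjusted p = 1.08e-06). Of 40 zinc finger genes of chromosome 19 tested (42 listed), 35% differed, below the share of all genes: 13 were higher with baicalein, among them ZNF222 (3.97 against 12.5 CPM), and 1 with genistein, ZNF813 (11.1 against 3.17 CPM). The 13 became 9 without baicalein replicate 1 and 18 without baicalein replicate 2. Of 23 interferon genes tested (28 listed), 47.8% differed, 7 higher with genistein and 4 with baicalein. IRF1, an interferon response factor, rose with both, to 12.5, 9.04 and 10.6 CPM with genistein and to 44.5, 54.5 and 47 CPM with baicalein (log2 difference -2.19 ± 0.19, adjusted p = 1.32e-06). Of 30 lysosome and autophagy genes tested, 46.7% differed, 9 higher with genistein and 5 with baicalein (median 0.06). MAP1LC3B, a coat protein of autophagosomes, rose with both and further with baicalein, at 200.4 ± 4.43 against 488 ± 151 CPM (log2 difference -1.28 ± 0.18, adjusted p = 7.8e-05).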
